A study of Mus musculus with 8 samples.

Results

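The small proline-rich protein (Sprr) genes were followed in BNP-injected cheek skin of mice with and without a keratinocyte Cre that targets Tbx20. They were taken by gene symbol from the deposited table and are 10 of its 18901 genes: Sprr1a, Sprr1b, Sprr2a1, Sprr2a2, Sprr2a3, Sprr2d, Sprr2e, Sprr2h, Sprr3 and Sprr4. The table holds 14 Sprr symbols in all, and the 4 outside the list, Sprr2b, Sprr2f, Sprr2i and Sprr2k, are given below beside it. The 10 genes were chosen by the differences between the genotypes in these same read counts and FPKM values (reads scaled by transcript length and by library size), which were already known. Their fold changes between the genotypes are therefore descriptions, and no test on them supports anything.

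RNA came from cheek skin of 8 female mice aged 7 weeks, of which 4 were TBX20fl/fl;K14-Cre, called cKO mice below, and 4 were TBX20fl/fl littermates, called control mice. Each mouse carries Tbx20 alleles with exons 2 to 3 between loxP sites, and the first group also carries a Cre transgene under the keratin 14 promoter, which is active in basal keratinocytes of the epidermis and its appendages. Every mouse received 10 µg of BNP, a natriuretic peptide that evokes itch, in 10 µl into the skin of the left cheek, and tissue was taken 5 h after behaviour was recorded, so the comparison holds no skin without BNP. The K14-Cre line was on C57BL/6N and the floxed line on C57BL/6J. Each library is named by its replicate number.

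Total counts ranged from 16056282 to 19880654 per mouse. Tbx20 had at most 2.09 counts in any cKO mouse and at most 3.01 in any control mouse, so its loss was not detectable in whole tissue at this depth. Krt14, the keratin of basal keratinocytes, was at 1075 to 1305 FPKM in cKO mice and at 1084 to 1572 FPKM in control mice. The library of control mouse 2 stood apart. Its scaling factor (TMM) was 0.735, against 1.01 to 1.07 in the other 7 libraries, and its log2 CPM (counts scaled to library size) lay above the median mouse by a median of 1.51 in 157 genes with transcripts under 500 bases.

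SPRR proteins are precursors of the cornified envelope, the protein shell that replaces the membrane of a dying keratinocyte. Transglutaminases cross-link them to loricrin, involucrin and each other through their ends, and a proline-rich repeat in the middle acts as a flexible bridge. The genes lie together in the epidermal differentiation complex, and several of them, in particular Sprr1b and the Sprr2 genes, are known to be induced in keratinocytes by wounding and inflammation.

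On GRCm38 the family spans chr3:92215835-92500493. The 10 Sprr2 genes of the table lie on the plus strand at chr3:92215835-92433927, and Sprr1b, Sprr3, Sprr1a and Sprr4 on the minus strand at chr3:92436808-92500493. The coding sequences of Sprr2a1 (gene ID 20755) and Sprr2a2 (gene ID 100303744) in the GENCODE M21 transcripts were identical over 252 bases. Sprr2a3 (gene ID 100042514) differed from Sprr2a1 in 3 bases, G63A, G159T and A192T, with positions counted from the first base of the start codon, Sprr2a1 given first. These sequences show how little separates the reads of the 3 genes, with the bases that differ in capitals.
Sprr2a1: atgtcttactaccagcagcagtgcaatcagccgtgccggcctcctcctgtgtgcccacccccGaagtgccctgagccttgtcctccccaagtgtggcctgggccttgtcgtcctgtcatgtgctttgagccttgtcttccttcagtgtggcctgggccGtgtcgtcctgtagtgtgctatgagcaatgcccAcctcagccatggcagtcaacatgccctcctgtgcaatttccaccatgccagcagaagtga
Sprr2a3: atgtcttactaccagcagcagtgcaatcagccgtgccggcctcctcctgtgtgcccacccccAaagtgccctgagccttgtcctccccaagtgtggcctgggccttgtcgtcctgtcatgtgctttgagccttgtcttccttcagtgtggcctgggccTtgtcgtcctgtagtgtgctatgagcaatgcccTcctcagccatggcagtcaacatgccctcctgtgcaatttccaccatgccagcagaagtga

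Each of the 3 differences falls on the third base of its codon. Of the 50-base stretches of the annotated transcripts, the length of a read, 96.3% in Sprr2a1 and 96.5% in Sprr2a2 also occurred in another gene, and 61.1% in Sprr2a3. The share was 4.27% in Sprr2d and 10.2% in Sprr2e. No stretch of Sprr2h, Sprr1a, Sprr1b, Sprr3 or Sprr4 occurred in another gene. The counts split accordingly: Sprr2a1 and Sprr2a2 were given exactly the same value in 5 of 8 mice, and in control mouse 2 the first had 0 counts and the second 111. How the counting program divided such reads is not given in the sources used here, so Sprr2a1 and Sprr2a2 can be read only as a sum, and Sprr2a3 with reserve.

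**Figure D1:**
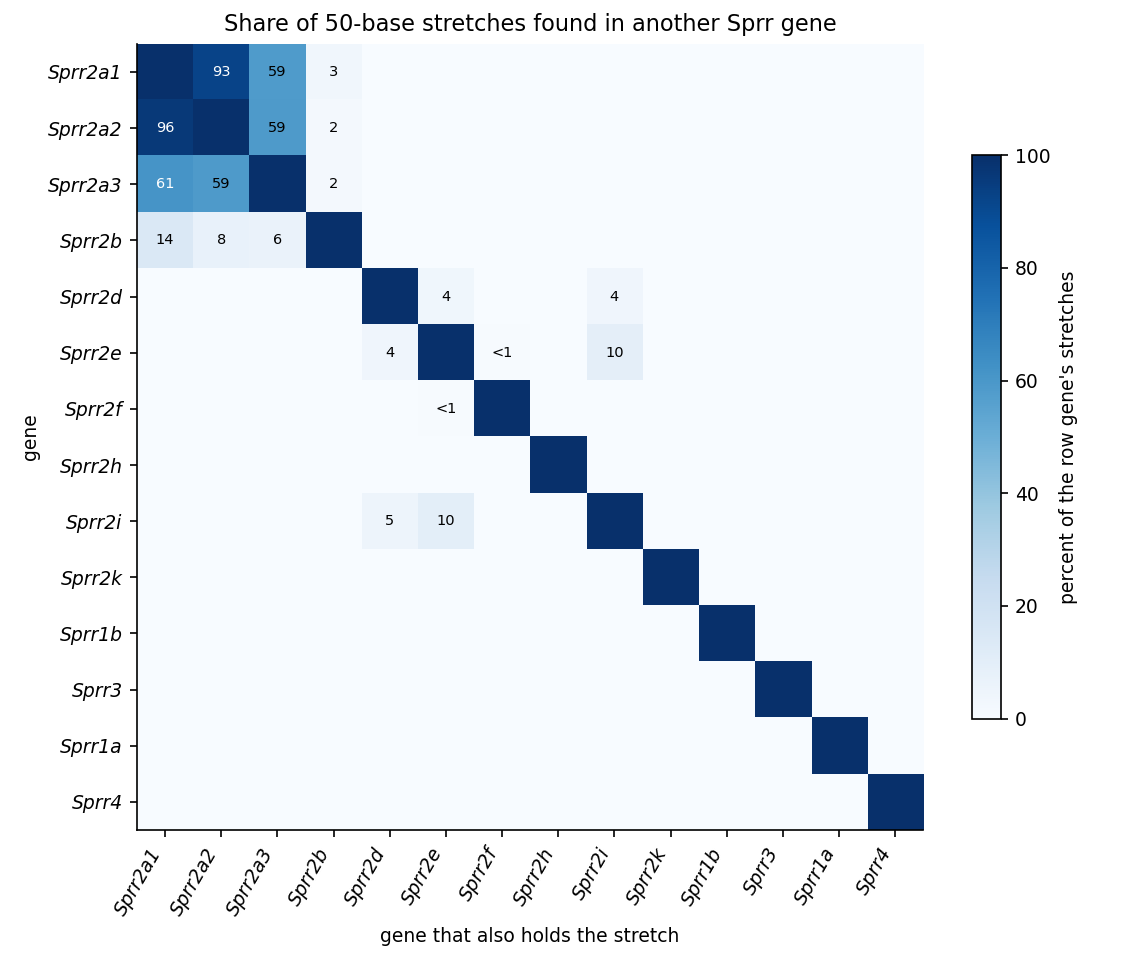
Share of the 50-base stretches of each Sprr gene's transcripts (rows) that also occur in another Sprr gene (columns), in percent, from GENCODE M21. Sharing is high only in the block of Sprr2a1, Sprr2a2 and Sprr2a3, and Sprr2h, Sprr1b, Sprr1a, Sprr3 and Sprr4 share none.

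The remaining members differ more in sequence. Sprr2d and Sprr2e matched at 84.9% of aligned coding positions and Sprr1a and Sprr1b at 78.4%. The repeat unit of the family is visible in Sprr2d, whose coding sequence is printed to set beside those of the Sprr2a genes. Capitals mark the 8 bases CCNGAGCC at the core of the repeat, where N is any base.
Sprr2d: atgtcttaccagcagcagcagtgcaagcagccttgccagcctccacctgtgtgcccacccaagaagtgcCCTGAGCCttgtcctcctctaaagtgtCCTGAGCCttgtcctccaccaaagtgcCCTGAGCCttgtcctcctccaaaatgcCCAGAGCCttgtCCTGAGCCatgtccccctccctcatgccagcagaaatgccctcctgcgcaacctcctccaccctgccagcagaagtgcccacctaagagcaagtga

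This core occurred 5 times in Sprr2h and in Sprr2d, 4 times in Sprr2e, 1 time in each of Sprr2a1, Sprr2a2 and Sprr2a3, 12 times in Sprr1b, 11 times in Sprr1a, 2 times in Sprr3 and not at all in Sprr4. The Sprr2a genes thus hold fewer copies of it than Sprr2d, Sprr2e and Sprr2h.

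The stretches before the transcript starts are printed for genes of each pattern of expression described below, from 220 bases before to 20 bases after the start, 5′ to 3′ on the strand of the gene. Capitals mark TGANTCA, a site that AP-1 can bind, the octamer ATTTGCAT, and the TATA motif TATAAA, each searched on both strands. The Sprr2d, Sprr2h, Sprr1b and Sprr1a stretches are from RefSeq (GRCm38.p6), at chr3:92338920-92339159 and chr3:92385465-92385704 on the plus strand and chr3:92438760-92438999 and chr3:92485862-92486101 on the minus strand. The Sprr2a1 stretch, chr3:92215700-92215939 on the plus strand, is set to a second start, 85 bases after the RefSeq start of Sprr2a1. This second start is that of a GENCODE transcript of 722 bases, which GENCODE M21 names Sprr2a2. The only GENCODE transcript named Sprr2a1, of 3003 bases, begins before the RefSeq start. The stretch was joined from the RefSeq window and the first exon of the 3003-base transcript, which were identical over 86 shared bases.
Sprr2a1: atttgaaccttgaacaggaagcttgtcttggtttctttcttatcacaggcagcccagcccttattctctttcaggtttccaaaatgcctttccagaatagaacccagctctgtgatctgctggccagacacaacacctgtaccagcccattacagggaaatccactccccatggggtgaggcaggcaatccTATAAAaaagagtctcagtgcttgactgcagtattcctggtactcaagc
Sprr2d: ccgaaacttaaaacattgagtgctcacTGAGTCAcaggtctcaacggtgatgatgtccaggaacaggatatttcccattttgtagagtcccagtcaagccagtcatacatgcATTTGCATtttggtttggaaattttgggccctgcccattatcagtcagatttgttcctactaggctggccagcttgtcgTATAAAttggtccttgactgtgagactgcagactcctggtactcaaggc
Sprr2h: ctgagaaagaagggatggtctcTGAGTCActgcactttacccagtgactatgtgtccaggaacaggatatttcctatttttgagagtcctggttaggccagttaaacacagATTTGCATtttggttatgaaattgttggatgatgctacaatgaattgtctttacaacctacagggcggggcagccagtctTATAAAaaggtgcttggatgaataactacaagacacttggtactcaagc
Sprr1b: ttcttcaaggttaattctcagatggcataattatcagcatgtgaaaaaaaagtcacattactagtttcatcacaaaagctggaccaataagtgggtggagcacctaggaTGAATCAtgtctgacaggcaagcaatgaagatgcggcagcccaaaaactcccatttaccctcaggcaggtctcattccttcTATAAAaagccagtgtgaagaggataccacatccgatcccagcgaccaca
Sprr1a: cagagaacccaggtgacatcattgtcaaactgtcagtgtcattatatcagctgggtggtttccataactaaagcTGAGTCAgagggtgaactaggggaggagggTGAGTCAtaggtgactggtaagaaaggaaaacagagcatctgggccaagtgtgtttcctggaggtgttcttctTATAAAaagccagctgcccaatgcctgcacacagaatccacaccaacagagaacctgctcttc

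In the RefSeq windows, which run from 250 bases before to 50 after the start and were found for all 14 genes, TGANTCA occurred in 9 of 14 Sprr genes and in 7.93% of all 27025 windows. The octamer occurred in 7 of 14 and in 1.75% of all windows, and it began 108 to 112 bases before the start in each of them. The 7 genes with the octamer are the Sprr2 genes of the table other than Sprr2a1, Sprr2a2 and Sprr2a3, and these 7 hold TGANTCA too. TATAAA occurred in 10 of 14 genes and in 14.2% of all windows. In the joined stretch of 378 bases of Sprr2a1, neither TGANTCA nor the octamer was found. The TATA motif lay 29 bases before the second start, the distance it had from the RefSeq starts of the 7 Sprr2 genes with the octamer. In the 3003-base GENCODE transcript named Sprr2a1 this motif lies inside the transcript, from base 93. The RefSeq windows of Sprr2a1, Sprr2a2 and Sprr2a3 held none of these 3 motifs, and those of Sprr2a1 and Sprr2a2 were identical. The TATA motif of Sprr2a1 lies past the end of its window, and the bases past the windows of Sprr2a2 and Sprr2a3 were not joined in this way, so no TATA motif is shown to be lacking there. The T-box half-site AGGTGTNA occurred in the window of 1 Sprr gene, Sprr1a, and in 3.03% of all windows.

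Levels per transcript length (FPKM) spanned a wide range within the family. Sprr4 and Sprr1a, which codes for a major envelope precursor, had means over 8 mice of 384 and 373 FPKM and made up 74.0% to 98.3% of the family's summed FPKM in every mouse. Sprr4 exceeded Sprr1a in 3 of 8 mice, so their order is not settled. Sprr1b followed with a mean of 25.9 FPKM and was below Sprr1a in all 8 mice. Sprr2a3, Sprr2h, Sprr2d and Sprr2e had means of 10.1, 6.32, 4.52 and 1.97 FPKM. Within them, Sprr2h was above Sprr2d and Sprr2d above Sprr2e in all 8 mice, whereas Sprr1b was above Sprr2a3, and Sprr2a3 above Sprr2h, in only 6 of 8. Sprr2a2 and Sprr2a1 had means of 0.929 and 0.738 FPKM, values divided by an effective length of 3505 bases against 803 for Sprr2a3. Sprr3, known from oral and oesophageal epithelium, had 0 to 3 counts per mouse, at or under the 3 counts taken as the detection limit, and no fold was formed. Of the mucosal keratins, 3 were low as well, with Krt4 at 0.70 to 3.48 CPM, Krt13 at 0.30 to 0.91 CPM and Krt76 at most 3 counts in any mouse. Krt78 and Crnn (cornulin), the remaining genes of the mucosal list, were at 39.7 to 65.1 CPM and 0.742 to 123 CPM, and 1 of the 4 genes tested was below 0 in log2 fold change.

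**Figure D2:**
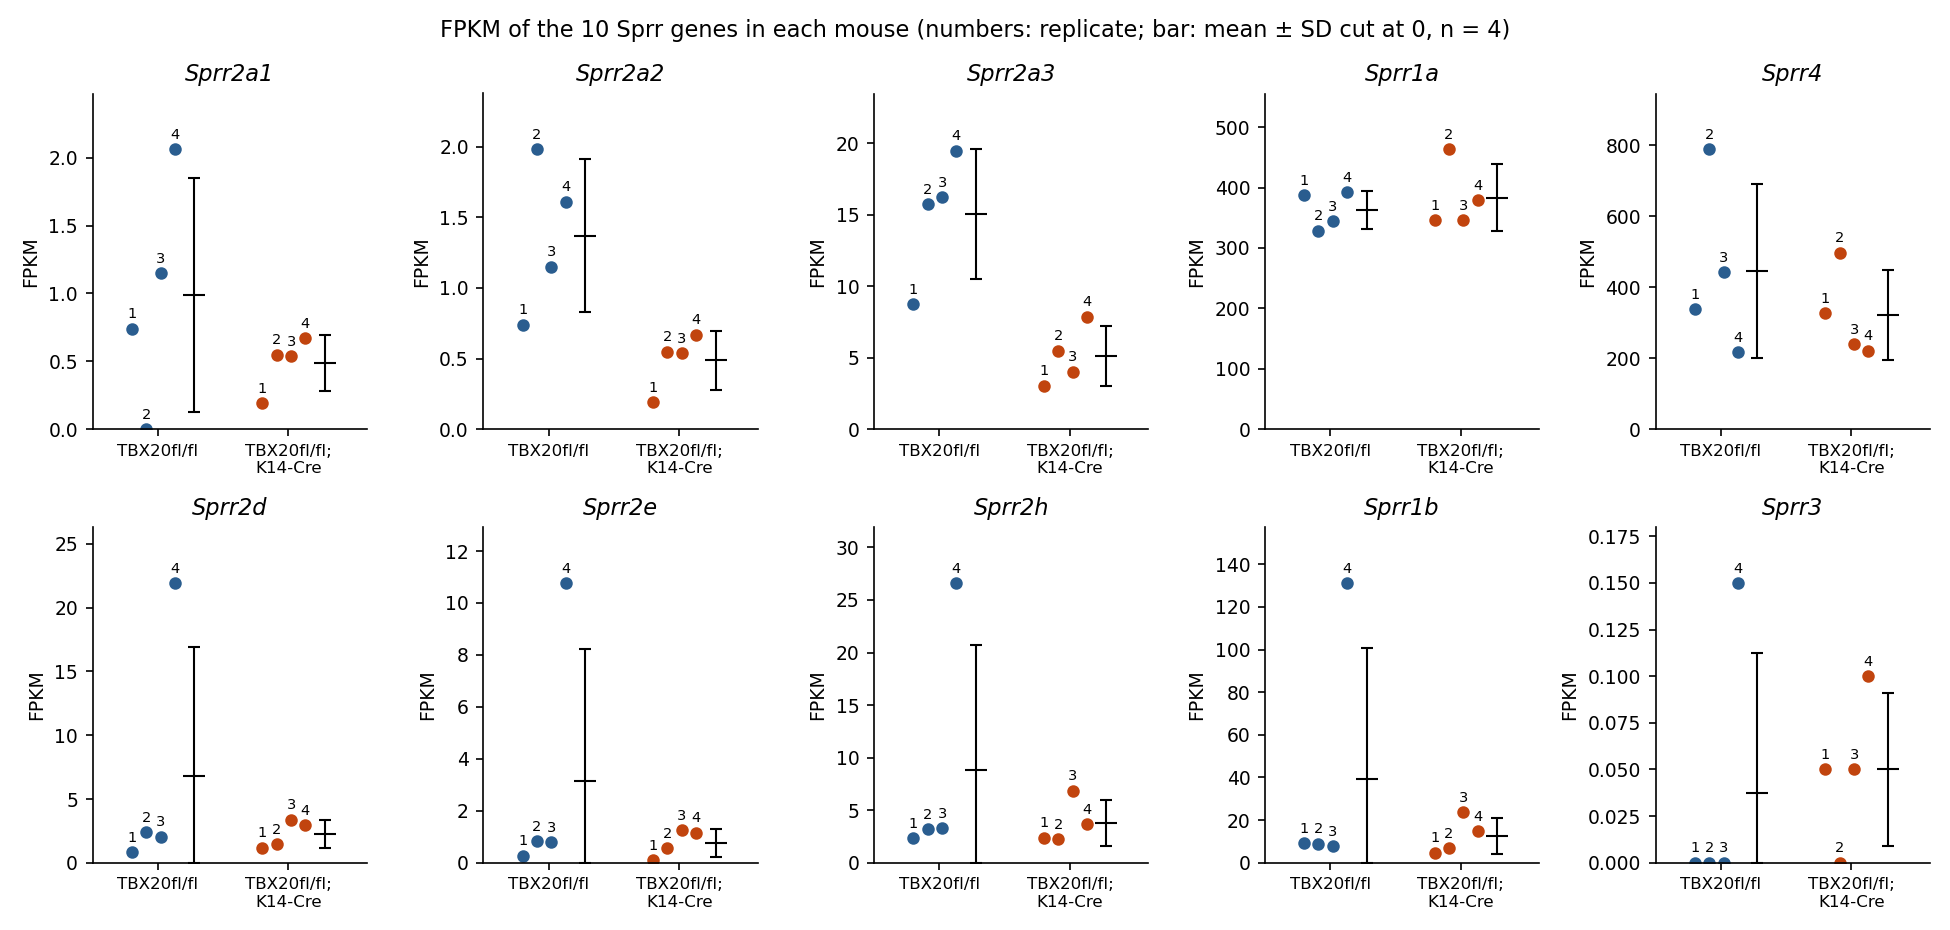
FPKM of each listed Sprr gene in each mouse, with a linear axis from 0 for each gene, TBX20fl/fl mice in blue and TBX20fl/fl;K14-Cre mice in red, replicate numbers above the points and the mean ± SD (n = 4, cut at 0) beside them. Sprr2a3 does not overlap between the genotypes, Sprr2a1 and Sprr2a2 show how their shared reads were divided and are to be read as a sum, Sprr2d, Sprr2e, Sprr2h and Sprr1b are carried by control mouse 4, and Sprr1a lies between 328 and 463 in every mouse.

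The members showed separate patterns between the genotypes, and with edgeR no gene of the table passed the threshold. With edgeR's quasi-likelihood test and Benjamini-Hochberg adjustment, 0 of the 9 members tested had an adjusted p under 0.05, against 0% of 17124 genes. At an unadjusted p under 0.05 the members numbered 2, Sprr2a2 and Sprr2a3, both lower in cKO mice, and all genes 1431 (8.36%), of which 1012 (5.91%) were lower. Sprr2a2 is counted singly here, and its value depends on how the reads shared with Sprr2a1 were divided. DESeq2 called 10 of 16410 genes (0.0609%), among them 1 member, Sprr2a3, and limma on log2(FPKM + 1) called 0 of 15970 genes (0%), with 1046 genes and 2 members at an unadjusted p under 0.05. DESeq2 gave no p for Sprr1b and Sprr2h, where it sets aside a single extreme count. Since the members were picked with this comparison known, nothing is read from these counts. All 9 had a log2 fold change below 0, as did 47.5% of all genes, with a median of -1.70 against 0.03 over all genes tested. Without control mouse 4, 5 of the 9 were below 0 and their median was -0.10.

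The first pattern was that of Sprr2a1, Sprr2a2 and Sprr2a3, which were lower in cKO mice. Sprr2a genes code for short envelope precursors and are also known to be induced in gut epithelium by bacteria. Sprr2a3 was at 3.05, 5.48, 4.03 and 7.88 FPKM in cKO mice 1 to 4 and at 8.75, 15.8, 16.2 and 19.5 FPKM in control mice 1 to 4. The highest cKO mouse stayed under the lowest control mouse. The means were 5.11 ± 2.10 and 15.1 ± 4.52 FPKM (SD, n = 4), so that the control mean was 2.95 times as high. Its log2 fold change from the counts was -1.74 (SE 0.35, edgeR adjusted p = 0.498), and it stayed between -2.02 and -1.57 when each mouse was left out in turn. DESeq2 gave -1.77 (SE 0.37) with an adjusted p of 0.00632.

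The reads shared by Sprr2a1 and Sprr2a2 were added before they were compared. Together they had 26.1, 76.2, 75.0 and 93.4 counts in cKO mice 1 to 4 and 101, 111, 153 and 246 counts in control mice 1 to 4. The groups again did not overlap. Listed singly, Sprr2a2 did not overlap either, while Sprr2a1 did, because its value in control mouse 2 was 0. The log2 fold change of Sprr2a1 was -1.07 (SE 0.84), and -0.45 without control mouse 4. Complete separation with the cKO mice below was found in CPM for 2 of the 9 members and for 560 of 17124 genes (3.27%), and in FPKM for 2 members and 307 of 15970 genes (1.92%). The sum of Sprr2a1, Sprr2a2 and Sprr2a3 was 73.2, 163, 139 and 219 counts against 239, 314, 400.0 and 545 counts. Its log2 fold change was -1.61 (SE 0.35, edgeR adjusted p = 0.498), with a range of -1.84 to -1.39 when each mouse was left out. Without control mouse 4 it was -1.48, without control mouse 2 -1.50, and with the trend of log2 CPM on transcript length removed from each library -1.27. With a replicate block, in which mice of the same number are paired, it was -1.63 (SE 0.15). Whether fewer keratinocytes with these transcripts or less transcript per cell was present cannot be told apart in whole tissue.

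Of the marker lists of other cells, the neutrophil list alone had summed levels that did not overlap between the groups. The 18 neutrophil genes of the list used here summed to 271 to 460 CPM in cKO mice and to 531 to 1279 CPM in control mice, highest in control mouse 2. Of the 18, 17 had a log2 fold change below 0, against 47.5% of all genes tested. In edgeR 13 of the 18 were lower at an unadjusted p under 0.05, against 5.91% of all genes. Their median was -1.30. It was -0.99 without control mouse 2, -1.18 without control mouse 4 and -1.04 with the length trend removed. None of the 18 was at or under 3 counts in every mouse. The 15 hair follicle genes tested summed to 97.2 to 4075 CPM and 45.6 to 368 CPM. All 15 were above 0, against 8987 of all 17124 genes, but the sums overlapped and the highest was that of cKO mouse 2. In edgeR 9 of the 15 were higher at an unadjusted p under 0.05, against 419 of the 17124 genes. The 7 keratins of the interfollicular epidermis summed to 7657 to 10473 CPM and 8563 to 10889 CPM, with 3 below 0 and 4 above. Sebaceous gland genes (5 of 7 below 0, 1293 to 2948 and 1429 to 3031 CPM), skeletal muscle genes (7 of 12, 14137 to 24842 and 19360 to 33627 CPM) and adipocyte genes (5 of 8, 3142 to 4459 and 3440 to 6977 CPM) overlapped between the groups. The part of these cells in the Sprr2a difference was not tested.

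The second pattern was that of Sprr2d, Sprr2e, Sprr2h and Sprr1b, which stood high in a single control mouse. Sprr1b is the member classically used as a marker of squamous differentiation under stress. It was at 4.79, 6.96, 23.6 and 14.9 FPKM in cKO mice 1 to 4 and at 9.19, 8.87, 7.80 and 131 FPKM in control mice 1 to 4. Control mouse 4 was 14.8 times the median of the other 7 mice, and control mice 1 to 3 lay within the range of the cKO mice. The log2 fold change of -1.72 (SE 0.95, edgeR adjusted p = 0.498) became 0.30 without control mouse 4 and -0.90 with a replicate block, in which mice of the same number are paired.

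Sprr2h followed Sprr1b. It was at 2.37, 2.23, 6.86 and 3.65 FPKM in cKO mice and at 2.33, 3.21, 3.27 and 26.6 FPKM in control mice. Control mouse 4 was 8.29 times the median of the other 7, and the remaining values overlapped. In the cKO group mouse 3 had the highest level of both genes. The log2 fold change of Sprr2h was -1.32 (SE 0.77), 0.13 without control mouse 4 and -0.75 with the replicate block.

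Sprr2d was at 1.17, 1.45, 3.38 and 2.93 FPKM in cKO mice and at 0.82, 2.41, 2.03 and 21.9 FPKM in control mice. Sprr2e was at 0.09, 0.57, 1.26 and 1.15 FPKM and at 0.27, 0.82, 0.80 and 10.8 FPKM. Both had their lowest levels in control mouse 1 or cKO mouse 1, and both were highest in control mouse 4, at 10.8 and 13.5 times the median of the other 7 mice. Their log2 fold changes of -1.70 (SE 0.90) and -2.09 (SE 1.08) became 0.11 and 0.09 without that mouse. With the replicate block Sprr2d was at -0.88 (SE 0.68) and Sprr2e at -1.42 (SE 0.72). The sum of Sprr2d, Sprr2e and Sprr2h was 47.4, 55.9, 152 and 101 counts in cKO mice and 45.4, 68.5, 77.1 and 747 counts in control mice. Its log2 fold change of -1.54 (SE 0.83) was 0.10 (SE 0.46) without control mouse 4 and -0.80 with a replicate block.

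**Figure D3:**
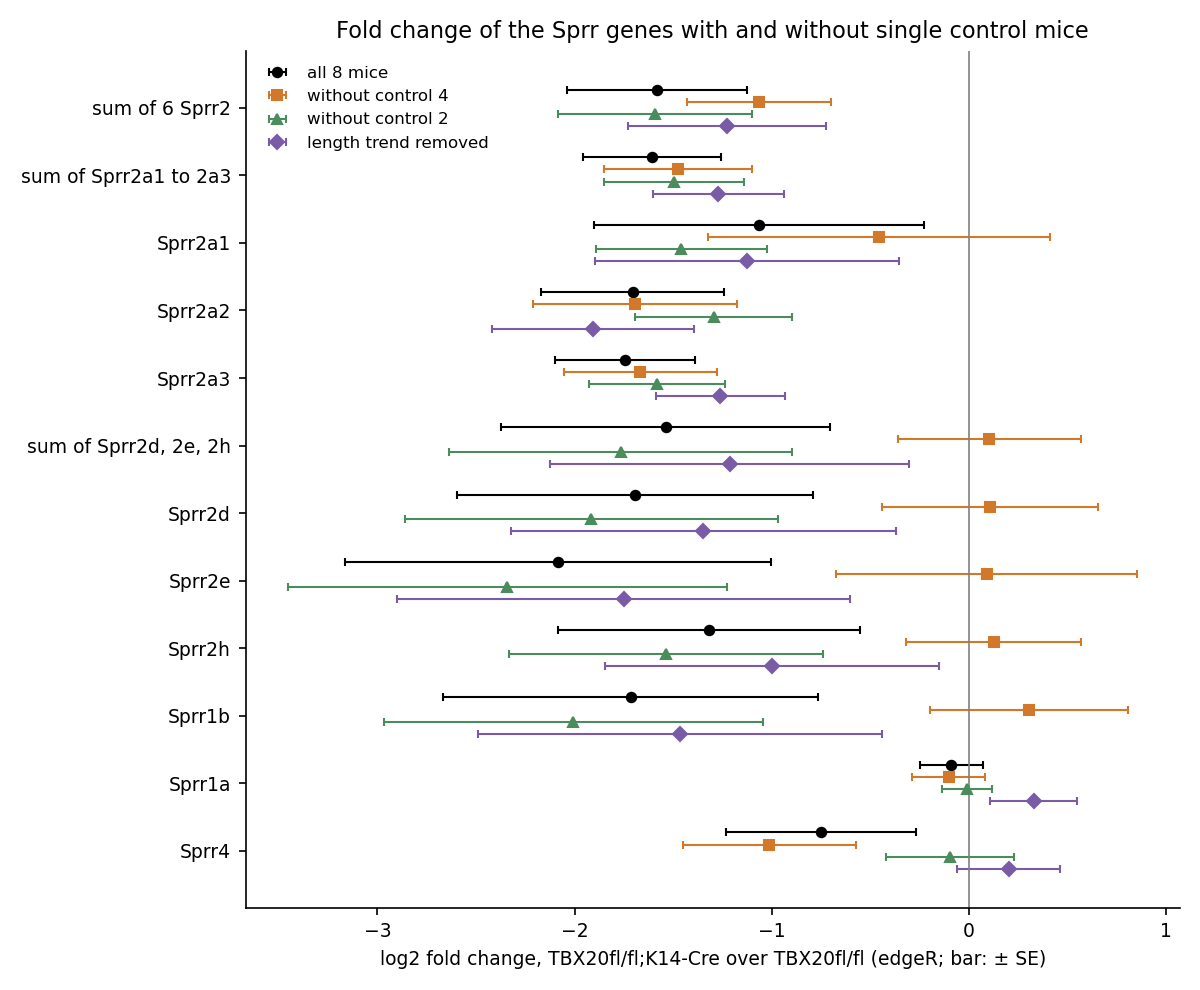
Log2 fold change (TBX20fl/fl;K14-Cre over TBX20fl/fl, edgeR, ± SE) of the Sprr sums and members with all 8 mice, without control mouse 4, without control mouse 2, and with the length trend removed. The values of Sprr2a3 and of the sum of the 3 Sprr2a genes stay below -1 in all settings drawn, those of Sprr2d, Sprr2e, Sprr2h and Sprr1b move from below -1 to above 0 without control mouse 4, and Sprr1a and Sprr4 move above 0 with the length trend removed.

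Among all 17124 genes tested, 50 (0.292%) had at least 10 counts in control mouse 4 and at least 5 times the median CPM of the other 7 mice there, and 4 of the 9 members were among them, with the unlisted Sprr2f beside them. The same count in the other mice was 5 to 262 genes and held no Sprr gene. The genes of this set that follow were named after their values were seen. They include Krt6a, Krt6b and Krt16, keratins of wounded and hyperproliferative epidermis, the stefins Stfa1, Stfa2 and Stfa3, the defensin gene Defb3, and the late cornified envelope genes Lce3a to Lce3f. Krt6b was at 507 CPM in control mouse 4 and at 6.61 to 31.0 CPM in the other 7 mice, and Stfa1 at 137 CPM and 1.43 to 9.24 CPM. Over the 8 mice the deviations of log2 CPM from the group means of Sprr1b and Sprr2h had a Pearson correlation of 0.97, those of Sprr2d and Sprr2e 0.97 and those of Sprr1b and Sprr2d 0.94. Without control mouse 4 (n = 7) the values were 0.87, 0.90 and 0.74. Sprr2a3 correlated with Sprr1b at 0.36 over 8 mice and 0.33 without that mouse, and with Sprr2h at 0.36 and 0.32. Its values with Sprr2d (0.57 and 0.73), Sprr2e (0.63 and 0.77) and Sprr2f (0.65 and 0.80) were higher. No such values are given for Sprr2a1 and Sprr2a2, whose reads can be read only as a sum. The points of each pair share their libraries, and the values are descriptions.

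**Figure D4:**
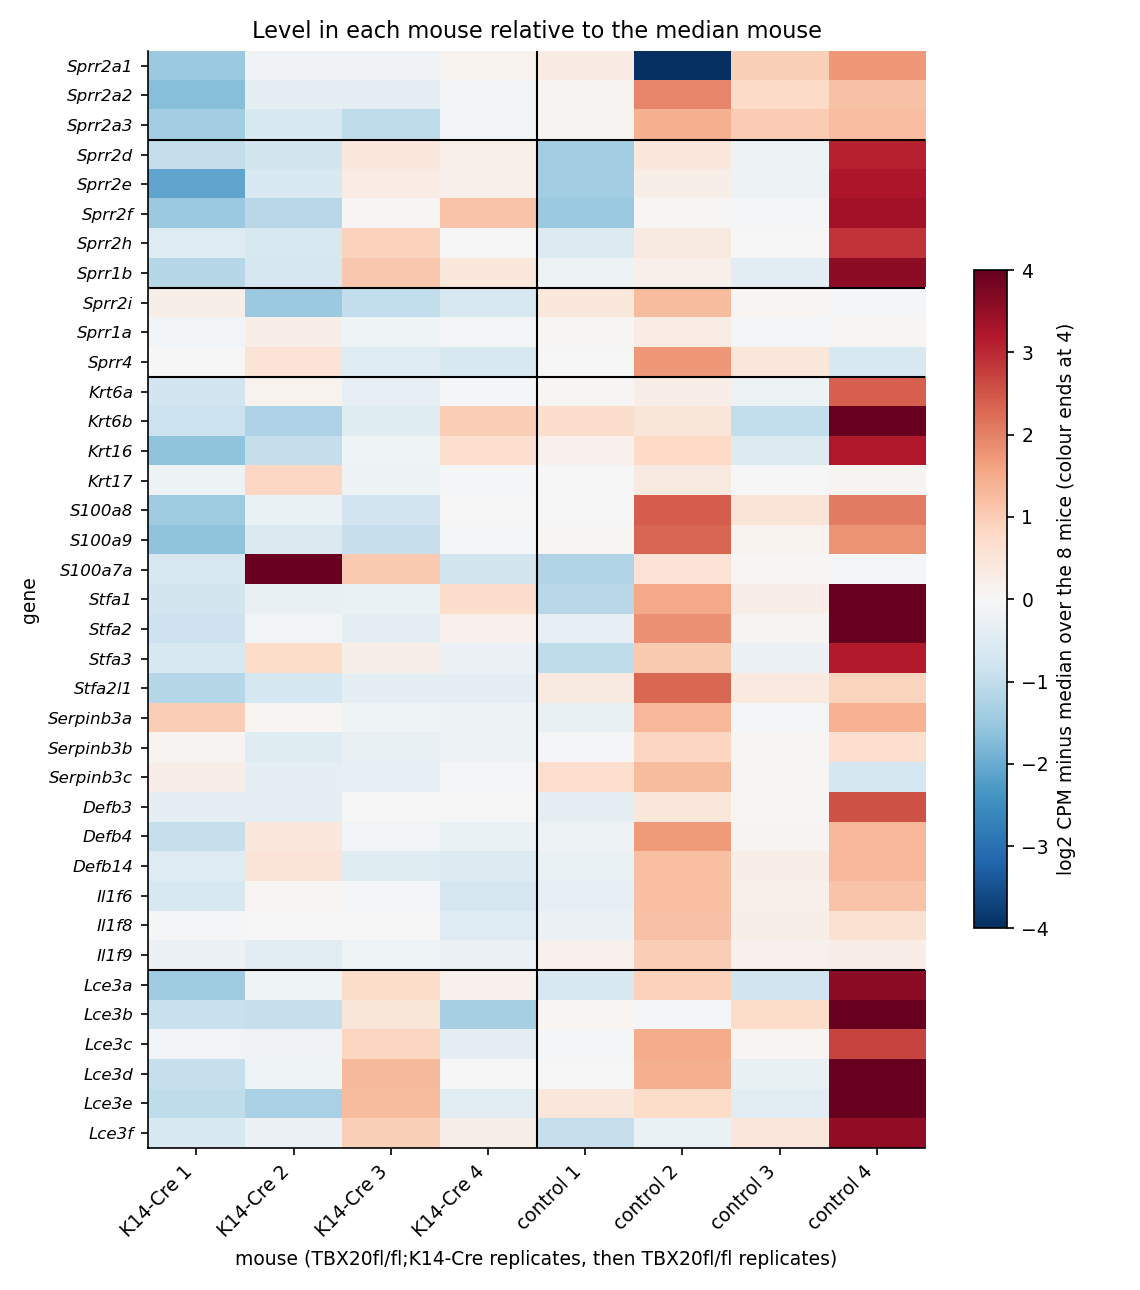
Log2 CPM of 11 Sprr genes, of the stress and wound genes tested and of Lce3 genes in each mouse minus the gene's median over the 8 mice, with the colour scale ending at 4 in each direction and lines between groups of genes and between genotypes. Control mouse 4 is dark red for Sprr2d, Sprr2e, Sprr2f, Sprr2h, Sprr1b, Krt6b, Krt16, Stfa1 to Stfa3 and Lce3 genes, and pale for Sprr1a, Sprr4 and Krt17.

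The make-up of the Sprr2 reads separated the patterns within each mouse. Sprr2a1, Sprr2a2 and Sprr2a3 took 60.8%, 74.4%, 47.8% and 68.4% of the reads of the 6 listed Sprr2 genes in cKO mice 1 to 4 and 84.2%, 82.0%, 83.9% and 42.2% in control mice 1 to 4. Control mice 1 to 3 were above every cKO mouse and control mouse 4 below. The 95% Wilson interval was 51.9% to 69.1% at its widest, in cKO mouse 1 with 120 reads, and 39.5% to 44.9% in control mouse 4 with 1292 reads, and it covers counting error only.

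**Figure D5:**
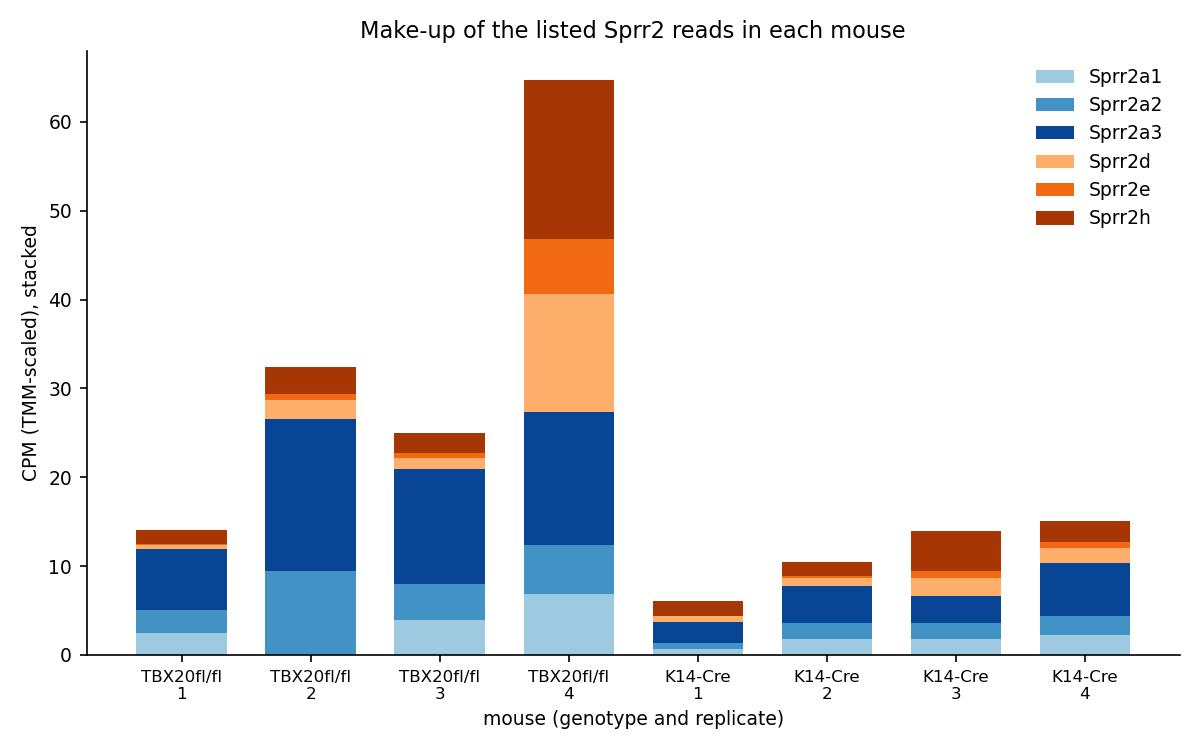
Stacked CPM (TMM-scaled) of the 6 listed Sprr2 genes in each mouse, Sprr2a genes in blue and Sprr2d, Sprr2e and Sprr2h in orange to brown. The Sprr2a part is smaller in TBX20fl/fl;K14-Cre mice, and the large orange and brown part stands only in control mouse 4.

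Summed over the 6 listed Sprr2 genes, the counts were 121, 219, 291 and 321 in cKO mice 1 to 4 and 285, 383, 477 and 1292 in control mice 1 to 4. Control mouse 1 lay among the cKO mice and the other control mice above them. The log2 fold change was -1.58 (SE 0.46, edgeR adjusted p = 0.498) and fell in size to -1.06 (SE 0.36) without control mouse 4 and to -0.78 without control mice 2 and 4. In FPKM the difference of the sum on the log2(FPKM + 1) scale was -1.18 (SE 0.49, limma adjusted p = 0.457) and -0.68 without control mouse 4. On this scale the median of all genes was 0.12. With all 10 Sprr2 genes of the table in the sum, the counts were 229 to 400.1 in cKO mice and 410.2 to 1474 in control mice, which did not overlap, and the log2 fold change was -1.51.

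Sprr1a and Sprr4, the abundant members, followed neither pattern. Sprr1a was at 346, 463, 346 and 379 FPKM in cKO mice and at 388, 328, 344 and 392 FPKM in control mice. The groups overlapped throughout, with means of 383 ± 55.4 and 363 ± 31.7 FPKM (SD, n = 4). Its log2 fold change was -0.09 (SE 0.16), which turned to 0.33 (SE 0.22) with the length trend removed.

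Sprr4, a family member known to respond to ultraviolet light in skin, was at 327, 497, 239 and 221 FPKM in cKO mice and at 338, 788, 442 and 216 FPKM in control mice. Control mouse 2 was highest and control mouse 4 lowest. Its annotation spans 231 bases, the shortest of the family, and at its effective length of 182 bases the trend in the library of control mouse 2 came to 1.86 on the log2 scale. The log2 fold change of -0.75 (SE 0.48) was -0.10 without control mouse 2 and 0.20 with the length trend removed, so its direction depends on the scaling.

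Of the 4 unlisted Sprr2 genes, Sprr2f resembled Sprr2d and Sprr2e. It was at 0.10, 0.22, 0.67 and 1.59 FPKM in cKO mice and at 0.09, 0.46, 0.54 and 8.04 FPKM in control mice, highest in control mouse 4. Sprr2i was at 9.83, 2.90, 4.28 and 5.46 FPKM and at 11.2, 14.5, 8.56 and 8.01 FPKM, with only cKO mouse 1 inside the range of the control mice and no excess in control mouse 4. Its log2 fold change was -1.11 (SE 0.43) and -0.45 with the length trend removed. It was between -1.55 and -0.75 when each mouse was left out, with -1.27 without control mouse 4. Sprr2b and Sprr2k had at most 4.37 and 4.00 counts in any mouse, too few to place them.

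The other genes of the cornified envelope and of late differentiation, such as loricrin, involucrin and the late cornified envelope genes, were also mostly below 0, without a call. Of 42 tested, 32 had a log2 fold change below 0, with a median of -0.60. Of the 42, 11 were lower and 1 was higher at an unadjusted p under 0.05, against 5.91% lower and 47.5% below 0 over all genes tested, and none had an adjusted p under 0.05. The median was -0.24 without control mouse 2. With the length trend removed 25 of 42 were below 0 and the median was -0.07. The summed level was 8280 to 10502 CPM in cKO mice and 8889 to 16138 CPM in control mice, highest in control mouse 2. The most abundant were Dmkn (dermokine) at -0.37 (SE 0.23), Krtdap at -0.89 (SE 0.35), Sbsn (suprabasin) at -0.24 (SE 0.21) and Flg2 (filaggrin family member 2) at 0.32 (SE 0.23) in log2 fold change. With the length trend removed these were -0.06, -0.07, 0.03 and -0.19, which turned the direction of Sbsn and Flg2.

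Of 20 genes of the stress and wound response of keratinocytes tested, 18 had a log2 fold change below 0, 14 an unadjusted p under 0.05, all of them below 0, and none an adjusted p under 0.05. Over all genes tested 47.5% were below 0 and 5.91% were lower at that unadjusted p. The median of the 20 was -1.25, and -0.64 without control mouse 4. Among the most abundant, Krt17 was at 0.04 (SE 0.25), Krt6a at -1.27 (SE 0.56), Krt6b at -3.29 (SE 1.26) and S100a9, a calcium-binding protein gene that stands in the neutrophil list too, at -2.09 (SE 0.56). Without control mouse 4, Krt6a was at -0.26, Krt6b at -0.37 and S100a9 at -1.92. With the length trend removed S100a9 was at -1.32, and its highest level, 296 CPM, was in control mouse 2. Of 26 genes of cytokines, receptors and AP-1 factors upstream of the family, 16 were below 0, with a median of -0.28, and 8 of them had an unadjusted p under 0.05, against 47.5% and 5.91% over all genes tested.

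The genes whose deviations from the group means followed the Sprr2 sum most closely over the 8 mice, among 12288 genes with a mean of at least 5 CPM, were Pcolce (r = 0.95), Nxpe5 (0.95), Cd300ld (0.95), Pdia4 (0.95) and Lgmn (0.93). Without control mouse 2, 1 of the 5, Nxpe5, remained among the top 5, and without control mouse 4 none did. The names thus depend on which mice are used, and the values of each pair share their libraries.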

How the data were processed

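Libraries from the cheek skin of 8 mice were read on a DNBseq platform (50 bases, single end). The authors cleaned the reads with SOAPnuke and aligned them with HISAT. The coordinates in the table lie on the RefSeq chromosomes of GRCm38, and the alignment build is otherwise not given in the sources used here. The authors deposited 1 table of 18901 genes with estimated read counts (expected counts, not normalized; 69.0% of those above 0 were not whole within 0.001) for each mouse. The authors also made the deposited FPKM values, which scale the counts by transcript length and library size. The counting program is not given in the sources used here. The authors also deposited log2 fold changes, p-values and q-values for their own comparisons, TPM and normalized counts, none of which was used. No batch is given.

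Counts were rounded and genes with at least 10 counts over 8 mice (17124) were compared with edgeR 4.0.16 (TMM, quasi-likelihood test) in R 4.3.3. Each SE was taken as |log2 fold change| over √F. FPKM values were compared with limma 3.58.1 (eBayes with trend) after adding 1 and taking log2, where the mean FPKM reached 0.1. P-values were Benjamini-Hochberg adjusted over all genes, with a threshold of 0.05. DESeq2 1.42.0, other scalings and filters, a replicate block, leaving out each mouse, and a trend on transcript length (from genes averaging 50 counts or more, removed as an offset) were alternatives. Effective lengths were derived from the counts and FPKM. CPM are TMM-scaled, and log2 CPM use a prior count of 2. The detection limit of 3 counts is 0.151 to 0.187 CPM and covers counting error only. The fits were run on simulated counts whose spread between mice was capped, so this check does not extend to genes with a spread above the cap.

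The labels number the mice 1 to 4 in each group. Deviations from the group means of mice with the same number correlated at 0.32, 0.28, 0.18 and 0.11 across genes. All 4 exceeded 0.1, which was the criterion for treating the numbers as pairs. Mice with different numbers also exceeded it in 3 of 12 cases (0.32, 0.14 and 0.14), and the labels do not say what a number marks, so the pairing is uncertain.

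Sequences are from GENCODE M21 transcripts and RefSeq promoter windows. Python 3.11.15 with Biopython 1.88 was used. The members, the gene lists, the sums and the settings were chosen with earlier results of these data known. Named genes are the members, every other Sprr gene, Tbx20 and Krt14, the 4 most abundant genes of the cornified envelope and the stress lists, and the 5 genes most like the Sprr2 sum. Outside this rule, Krt4, Krt13, Krt76, Krt78 and Crnn are named as the whole mucosal list, and Krt16, the Stfa, Defb3 and Lce3 genes were named after their values were seen. P-values measure the spread between these mice.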

Additional observations from a re-analysis of the deposited data

Results flagged for a closer look

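In groups of 4 mice, an FPKM value was set apart where its gap to the nearest mouse, divided by the range of the group, exceeded Dixon's 95% critical value. Of 34 groups examined over the 14 Sprr genes and 3 sums, 10 did so. Chance flags about 1 in 20 groups, but the 10 cannot be read against that rate, since the genes were chosen by these values and the sums repeat their members. In TBX20fl/fl mice the high value was that of mouse 4 in each case. The gap was 0.989 of the range for Sprr1b (131 FPKM), 0.961 for Sprr2h (26.6 FPKM), 0.948 for Sprr2e (10.8 FPKM), 0.943 for Sprr2f (8.04 FPKM) and 0.925 for Sprr2d (21.9 FPKM). It was 0.946 for the sum of Sprr2d, Sprr2e and Sprr2h (59.3 FPKM) and 0.840 for the sum of the 6 listed Sprr2 genes (82.5 FPKM). Sprr3, with 0.15 FPKM in mouse 4 and 0 in the others, had a gap of 1, on 3 counts. In TBX20fl/fl;K14-Cre mice, mouse 3 alone had a value above 0 for Sprr2b (0.27 FPKM) and Sprr2k (0.09 FPKM), each with a gap of 1. For Sprr3, Sprr2b and Sprr2k this gap holds by construction, since a single mouse of the group was above 0. Sprr2a1, Sprr2a2, Sprr2a3, Sprr1a, Sprr4 and Sprr2i had no such value in either genotype.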

How the results depend on the processing

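Under 17 other settings of the count comparison, the number of genes past the threshold stayed at 0 except with DESeq2 (10 genes), which also gave 1 member past it. The sum of Sprr2a1, Sprr2a2 and Sprr2a3, formed after the data were seen, passed with DESeq2 (-1.63, adjusted p = 0.0172). The sum of Sprr2d, Sprr2e and Sprr2h, formed likewise, ranged from -1.92 to 0.10 when each mouse was left out, and was 0.45 without control mice 2 and 4, a setting added after the data were seen. That setting gave Sprr2d 0.60, Sprr2e 0.52, Sprr2f 0.87, Sprr2h 0.37, Sprr1b 0.51 and Sprr1a 0.015. When each mouse was left out, log2 fold changes ranged from -2.07 to 0.11 (Sprr2d), -2.47 to 0.089 (Sprr2e), -2.94 to 0.56 (Sprr2f), -1.77 to 0.13 (Sprr2h) and -2.21 to 0.30 (Sprr1b), and differences in log2(FPKM + 1) from -1.0 to 0.22, -0.99 to 0.078, -0.81 to 0.20, -0.83 to 0.19 and -1.04 to 0.27. The highest value was that without control mouse 4 in each. Sprr1a ranged from -0.022 to 0.12 in log2(FPKM + 1). With the length trend removed, Sprr1a was 0.33 and Sprr4 0.20, and with the replicate block as well 0.39 and 0.24. In the replicate block fit the Sprr2 sum was -1.46 from counts, and no call changed. Depth limits Sprr3, Sprr2b and Sprr2k, which had under 5 counts in any mouse. The causes were not tested.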
